A study of Oryza sativa with 18 samples.

Results

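The catalases and superoxide dismutases of rice leaves were followed through drought as 9 genes, 3 catalases and 6 superoxide dismutases, out of 39049 genes in the table. They were chosen by gene family, from their locus identifiers. Leaves at the tillering stage came from pot-grown plants of 3 genotypes: H471, a drought-tolerant introgression line that carries segments of P28 in an HHZ background; P28, the tolerant donor; and HHZ, the drought-sensitive recurrent parent. Each genotype was sampled well watered (control), after 1 day of drought, with the soil water content near 15%, and after 3 days, with it near 10%. RNA of several replicates was pooled before sequencing, and the 2 libraries of each genotype and condition were merged by the authors into 1 FPKM value (a read level normalised for transcript length and sequencing depth). The 18 libraries therefore give 9 columns. H471 is a single line, so that a difference between it and HHZ belongs to that line and cannot be assigned to a locus.

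Superoxide dismutases turn superoxide, a by-product of photosynthetic and respiratory electron transport, into hydrogen peroxide and oxygen, and catalases break hydrogen peroxide down to water and oxygen. Catalase is a peroxisomal enzyme, and in leaves much of its substrate comes from glycolate oxidase during photorespiration. Superoxide dismutases differ by their metal: in plants the copper-zinc enzymes are found in the cytosol, chloroplast and peroxisome, the manganese enzyme in mitochondria, and the iron enzymes in chloroplasts. When drought closes stomata, carbon dioxide inside the leaf falls, and both photorespiration and superoxide formation are generally held to increase.

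All 9 genes were expressed in every column. Catalase A (LOC_Os02g02400) and catalase C (LOC_Os03g03910) stood at rank 81 and rank 83 by mean FPKM among the 20568 genes kept for testing, which reached 1 FPKM or more in any column. Catalase B (LOC_Os06g51150) stood at rank 838. The copper-zinc enzymes were CSD1 of chromosome 3 (LOC_Os03g22810, rank 434), CSD1 of chromosome 7 (LOC_Os07g46990, rank 307) and CSD2 (LOC_Os08g44770, rank 474). The manganese enzyme MSD1 (LOC_Os05g25850) was at rank 424, and the iron enzymes FSD3 (LOC_Os06g05110) and FSD2 (LOC_Os06g02500) were at rank 2458 and rank 5331. Gene symbols come from the closest Arabidopsis gene, which for all 3 catalases is CAT2; the rice names of the catalases are used here. The CSD1 genes are close copies, and how reads that match both were shared between them or left out could affect the level of either.

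Each difference is a log2 difference of FPKM + 1. A pooled column has no standard deviation, and a difference between 2 columns has no test here. A limma fit of all 9 columns had additive effects of genotype and condition. The 3 genotypes serve as replicates for drought and the 3 conditions for genotype. The p-values thus measure the spread between genotypes or between conditions and not between plants. H471 has an HHZ background, so the 3 genotypes are not 3 unrelated backgrounds. p-values were adjusted over 20568 genes, and a gene was called at an adjusted p under 0.05.

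The columns were similar in scale, with FPKM sums of 816186 to 984323. All 4 genes of a drought list, 3 RAB16 genes and LEA3, were called higher after 1 day and after 3 days. The shares of all genes called higher were 27.4% and 27.0%. All 4 were also called lower after 3 days than after 1 day, against 24.4% of all genes, with a median difference of -2.13. Of 3 genes that mark roots or seeds, the root gene RCc3 was listed at 0 in every column, but 2 glutelin genes were at 31.6 and 21.3 FPKM in HHZ after 1 day, against at most 1.01 and 4.95 in the other 8 columns. Values with and without HHZ are therefore given where leaving out HHZ changed a call. That setting leaves out all columns of HHZ, so it does not show the part of the 1-day column alone. In bulk leaves, fewer cells of a type and less RNA per cell cannot be told apart.

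The family did not move as a block under drought. After 1 day, 4 of the 9 genes were called higher (catalase C, CSD1 of chromosome 3, CSD2 and FSD2) and 2 lower (catalases A and B). In this comparison 58.3% of all genes tested were called, 27.4% higher and 30.8% lower. After 3 days, 4 were again called higher (catalase B, MSD1, FSD3 and FSD2) and 2 lower (catalase C and CSD1 of chromosome 3), where 57.2% of all genes were called, 27.0% higher and 30.1% lower. The median difference of the 9 genes was 0.35 after 1 day and 0.37 after 3 days, and over all genes tested it was -0.02 and -0.03. The share of the family called was thus near the share of all genes. Within single genotypes, 2 of the 9 genes (catalase A and CSD2) passed a log2 difference of 1 after 1 day in each genotype, against 26.6% (H471), 27.1% (P28) and 25.5% (HHZ) of all genes tested. After 3 days 4 passed in H471 (all 3 catalases and MSD1), against 24.5% of all genes. In P28 and HHZ 3 passed (catalase C, CSD1 of chromosome 3 and MSD1), against 22.6% and 23.5%.

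**Figure D1:**
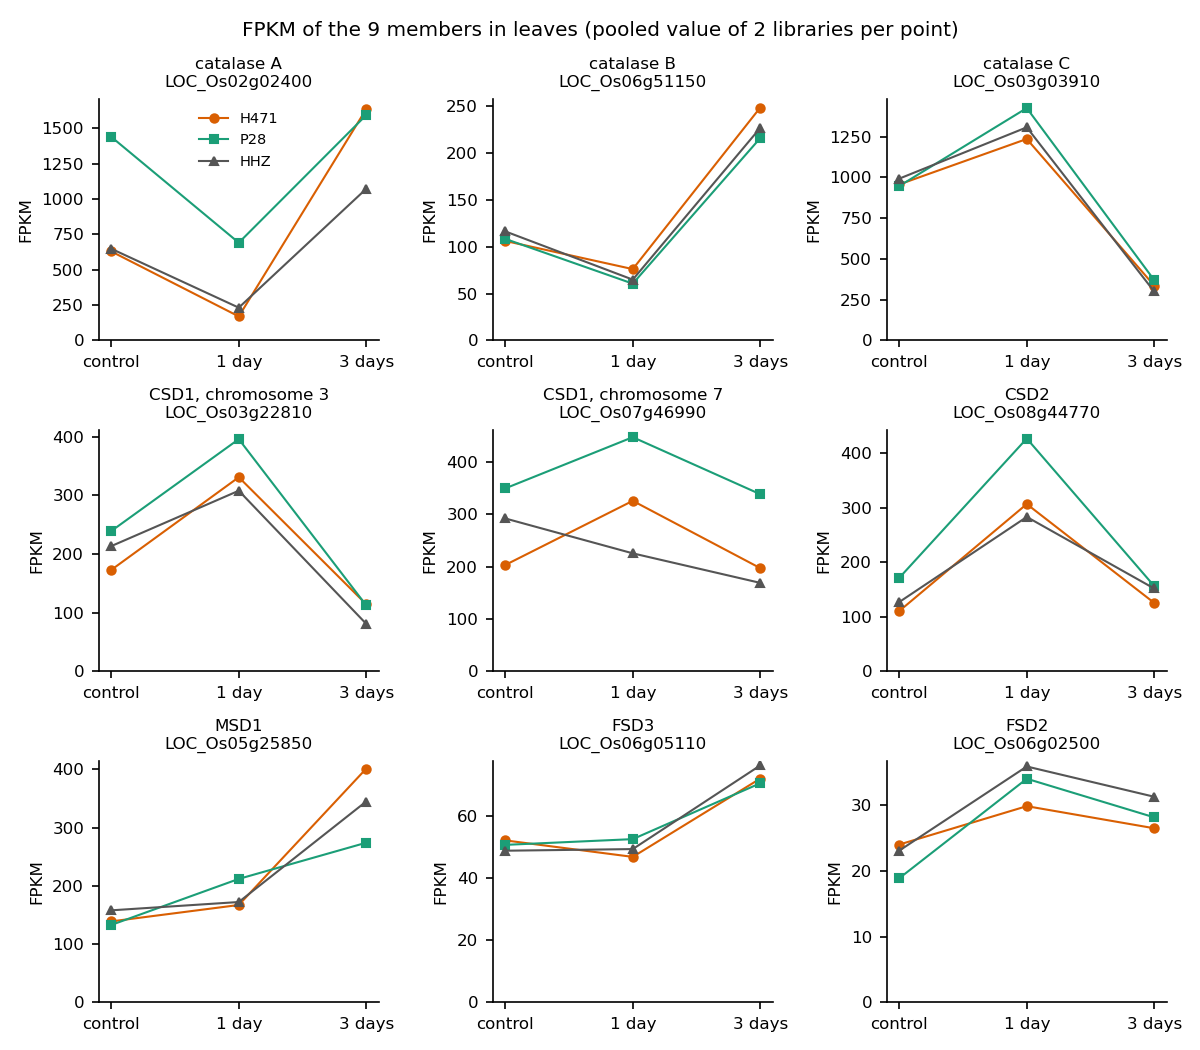
FPKM of the 9 genes (y axes, each starting at 0) in the control and after 1 and 3 days of drought (x axis). Each point is 1 pooled value for H471, P28 or HHZ. Catalases A and B were lowest after 1 day and catalase C was lowest after 3 days in each genotype.

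Catalases A and C moved in opposite directions after 1 day, and after 3 days catalase C fell while catalase A was not called. Catalase A, the more variable of the pair, had an FPKM of 628 in H471 controls, 169.5 after 1 day and 1633 after 3 days. In P28 it was at 1437, 690.3 and 1592 in the same order of conditions. In HHZ it was at 647, 231 and 1071. Within each genotype the 1-day value was the lowest and the 3-day value the highest, but the P28 control exceeded the 3-day value of HHZ.

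Fitted over the 3 genotypes, catalase A fell by 1.47 ± 0.33 (log2, SE) after 1 day (adjusted p = 0.00761, limma), lower in 3 of 3 genotypes. The 1-day values of 169.5 to 690.3 still overlapped the control values of 628 to 1437, since the P28 value after 1 day lay above the H471 and HHZ controls. The call was lost without a filter on low values (adjusted p = 0.0576) and without HHZ (0.0693), and over the 10 alternatives the adjusted p ranged between 0.00295 and 0.0693. After 3 days the difference from the control was 0.75 ± 0.33 and was not called (adjusted p = 0.0934). Its size varied by genotype, at 1.38 in H471, 0.15 in P28 and 0.73 in HHZ. Without P28 it was 1.05 and was called (adjusted p = 0.0269, in a range of 0.0269 to 0.298 over the alternatives). Set against 1 day, the 3-day level was higher by 2.22 (adjusted p = 0.00147), and these values did not overlap.

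Catalase B was the least abundant catalase in every column. In H471 its FPKM was 106 when well watered, 76.0 after 1 day and 248 after 3 days. P28 had 108, 60.5 and 216, and HHZ had 116, 64.8 and 226. The 3 genotypes lay close together in each condition, and no 2 conditions overlapped. Catalase B fell by 0.71 ± 0.09 after 1 day (adjusted p = 0.000451, limma) and rose by 1.05 ± 0.09 after 3 days (adjusted p = 8.8e-05). The mean 3-day level was 2.09 times the control mean and 3.43 times the 1-day mean.

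Catalase C is the rice catalase known from the noe1 mutant, whose leaves accumulate hydrogen peroxide and nitric oxide. It had an FPKM of 957 in H471 controls, 1236 after 1 day and 337 after 3 days. In P28 the values were 947, 1425 and 371, and in HHZ they were 993, 1307 and 300.3. Every genotype thus had its highest level after 1 day and its lowest after 3 days, with no overlap between conditions. The rise after 1 day was small, at 0.45 ± 0.11 (adjusted p = 0.00989, limma). It was not called without a filter on low values (0.0530) or without P28 (0.0678), in a range of 0.00742 to 0.0678 over the alternatives. After 3 days catalase C fell by 1.53 ± 0.11 (adjusted p = 4.48e-05), to a mean level 0.348 times that of the control, and it was called under all 10 alternatives.

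The main catalase transcript differed between conditions, while the sum of the 3 spanned a narrower range than either main gene. In H471 the summed catalase FPKM was 1691 when well watered, 1481 after 1 day and 2218 after 3 days. In P28 it was 2493, 2176 and 2178, and in HHZ it was 1756, 1603 and 1597. Catalase C made up 56.6% of that sum in H471 controls, 83.4% after 1 day and 15.2% after 3 days. Its share was 38.0%, 65.5% and 17.0% in P28 and 56.5%, 81.5% and 18.8% in HHZ. After 3 days catalase A was the main transcript in each genotype, with 73.6% of the sum in H471, 73.1% in P28 and 67.0% in HHZ. The P28 control differed from both other controls in that catalase A already led, at 57.7%, against 37.1% in H471 and 36.9% in HHZ. Sums and shares rest on 1 pooled value per column and were not tested, and they say nothing of enzyme activity, which was not analysed here.

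**Figure D2:**
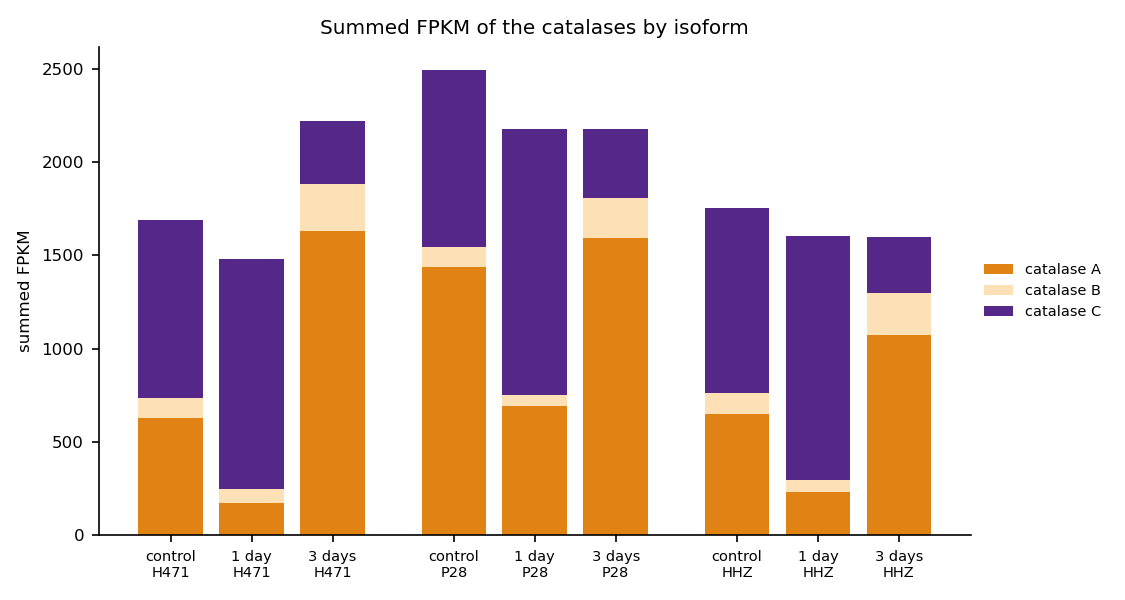
Summed FPKM of catalases A, B and C (y axis, from 0) for each genotype and condition (x axis), with the 3 genes stacked. Catalase C is the largest segment after 1 day and catalase A after 3 days in every genotype.

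Among the superoxide dismutases, CSD2, CSD1 of chromosome 3 and FSD2 had their highest level after 1 day in every genotype, and MSD1 and FSD3 after 3 days. Of the 6 genes, 3 were called higher and none lower after 1 day, and 3 higher and 1 lower after 3 days. Of all genes tested, 27.4% were called higher and 30.8% lower after 1 day, and 27.0% and 30.1% after 3 days. The median difference of the 6 superoxide dismutases was 0.46 after 1 day and 0.23 after 3 days.

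CSD2, whose Arabidopsis counterpart is the chloroplast copper-zinc enzyme, had the largest 1-day rise of the family. It was at 111 FPKM in H471 controls, 306 after 1 day and 126 after 3 days. P28 had 172, 426 and 156, and HHZ had 127, 283 and 152. All 1-day values lay above all control and 3-day values. The rise was 1.30 ± 0.12 (adjusted p = 9.05e-05, limma), which brought the mean to 2.48 times the control mean. After 3 days the difference from the control was 0.10 ± 0.12, with a 95% interval of -0.17 to 0.37 (adjusted p = 0.487), and the 3-day and control values overlapped. After 3 days CSD2 fell by 1.20 relative to 1 day (adjusted p = 0.000178).

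CSD1 of chromosome 3, of the type that is cytosolic in Arabidopsis, went past the control level in both directions. It was at 173 FPKM in H471 controls, 331 after 1 day and 115 after 3 days. In P28 it was at 239.5, 396 and 113, and in HHZ at 214, 308 and 81.3. No 2 conditions overlapped. It rose by 0.73 ± 0.14 after 1 day (adjusted p = 0.00364, limma) and fell by 1.02 ± 0.14 after 3 days (adjusted p = 0.000827). Between these times the mean dropped to 0.298 times the 1-day mean.

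CSD1 of chromosome 7 was the copper-zinc gene with the least uniform response. H471 had 203 FPKM when well watered, 326 after 1 day and 197 after 3 days. P28 had 349.7, 447 and 339, the highest level of the 3 genotypes in each condition. HHZ had 292, 225 and 169, and was the only genotype in which the 1-day value lay below the control. Neither drought difference was called, at 0.22 ± 0.19 after 1 day (adjusted p = 0.356, limma) and -0.29 ± 0.19 after 3 days (adjusted p = 0.232). The 1-day difference was called when HHZ was left out (0.52, adjusted p = 0.0314), and over the alternatives the adjusted p ranged between 0.0314 and 0.978, the highest being without H471, where the difference was -0.01. Set against 1 day, the 3-day level differed by -0.51 (adjusted p = 0.0629), which was called without HHZ (0.0308) and without the control columns (0.0114), in a range of 0.0114 to 0.218. The glutelin genes that stood apart were measured in that same HHZ 1-day column; their part in this value was not tested.

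MSD1, the mitochondrial manganese enzyme in Arabidopsis, had an FPKM of 139 in H471 controls, 167 after 1 day and 401 after 3 days. In P28 it was at 133, 212 and 274, and in HHZ at 158, 172 and 345. The 3-day values all lay above the rest. MSD1 rose by 1.23 ± 0.16 after 3 days (adjusted p = 0.000737, limma), to 2.37 times the control mean. The 1-day difference was 0.35 ± 0.16 and was not called (adjusted p = 0.106), although every 1-day value exceeded every control value. The 3-day rise ranged between 1.04 in P28 and 1.52 in H471, with HHZ at 1.12.

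The iron superoxide dismutases were the least abundant and least variable genes of the family. FSD3, which in Arabidopsis works at the chloroplast nucleoid, had an FPKM of 52.1 in H471 controls, 46.8 after 1 day and 72.0 after 3 days. P28 had 50.7, 52.5 and 70.5, and HHZ had 48.8, 49.3 and 76.2. Control and 1-day values were interleaved and the 3-day values lay above both. After 1 day the difference was -0.03 ± 0.07, with a 95% interval of -0.20 to 0.15 (adjusted p = 0.758, limma), and its sign turned with median-ratio scaling (0.01) and without H471 (0.03). After 3 days FSD3 rose by 0.52 ± 0.07 (adjusted p = 0.000982).

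FSD2, its partner at the nucleoid in Arabidopsis, had an FPKM of 24.0 in H471 controls, 29.8 after 1 day and 26.5 after 3 days. P28 had 18.9, 34.0 and 28.1, and HHZ had 23.1, 35.8 and 31.2. Controls were the lowest values in each genotype. FSD2 rose by 0.58 ± 0.10 after 1 day (adjusted p = 0.00279, limma) and by 0.37 ± 0.10 after 3 days (adjusted p = 0.0206). The 3-day call was lost without a filter on low values (0.0680), without P28 (0.0983) and without HHZ (0.140), in a range of 0.0145 to 0.140 over the alternatives.

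**Figure D3:**
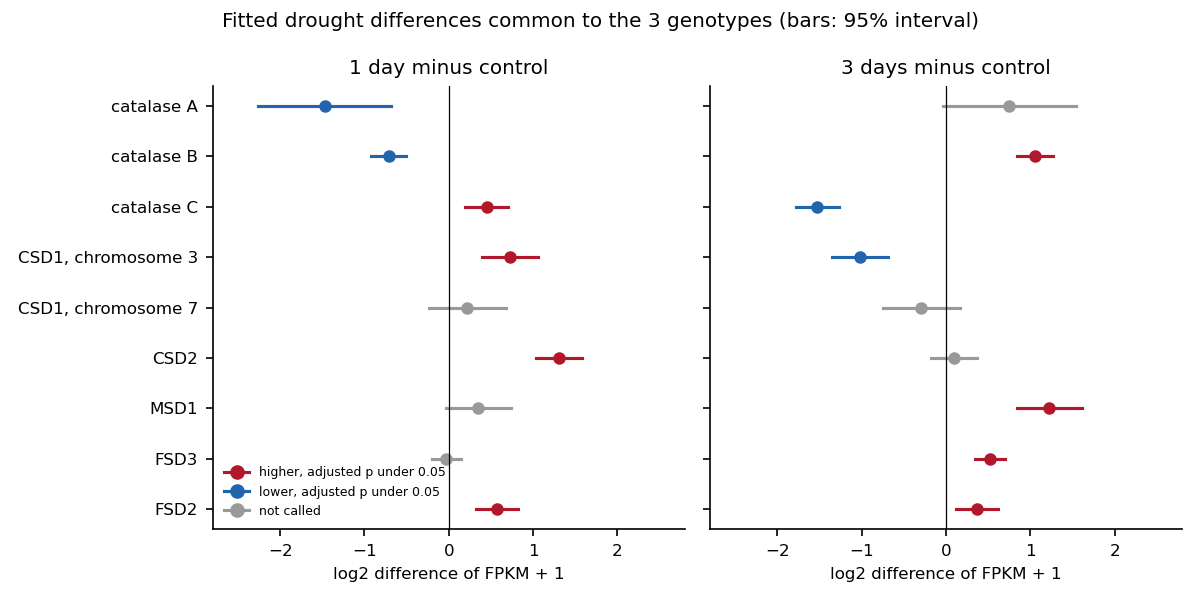
Fitted log2 differences of FPKM + 1 (x axes) for the 9 genes, 1 day minus control on the left and 3 days minus control on the right. Points are limma estimates common to the 3 genotypes and bars are 95% intervals; colours mark genes called higher or lower. Catalase C and CSD1 of chromosome 3 lie right of 0 after 1 day and left of 0 after 3 days, and catalase B lies the other way.

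The direct comparison of 3 days with 1 day called 7 of the 9 genes, 4 higher (catalases A and B, MSD1 and FSD3) and 3 lower (catalase C, CSD1 of chromosome 3 and CSD2), where 49.7% of all genes were called, 25.3% higher and 24.4% lower. The values of 7 genes did not overlap between the 2 days, against 54.4% of all genes tested. Between each drought time and the control 6 genes did not overlap, against 62.5% of all genes after 1 day and 60.7% after 3 days. The 3 comparisons share columns and are not independent of each other. Catalase A spanned 9.63-fold between its lowest and highest column, CSD1 of chromosome 3 spanned 4.87-fold, catalase C 4.75-fold and catalase B 4.10-fold. CSD2, MSD1 and CSD1 of chromosome 7 spanned 3.85-fold, 3.01-fold and 2.64-fold, and FSD2 and FSD3 1.90-fold and 1.63-fold. Among the 10629 genes with a mean FPKM of at least 10, the median span was 2.16-fold and 34.7% spanned at least 3-fold.

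The summed FPKM of the 6 superoxide dismutase genes was highest after 1 day in each genotype. LOC_Os03g11960, described by its best match as a further copper-zinc superoxide dismutase, was at 128 to 279 FPKM. It is left out of the sums, shares and ratios given here, which would differ with it. The sum of the 6 genes was 703 in H471 controls, 1207 after 1 day and 937 after 3 days. In P28 it was 963, 1568 and 980.5, and in HHZ 863, 1074 and 855. The 3 copper-zinc genes made up 69.4%, 79.8% and 46.7% of that sum in H471, 79.0%, 81.0% and 62.0% in P28, and 73.4%, 76.0% and 47.1% in HHZ. After 3 days MSD1 alone made up 42.8% in H471, 28.0% in P28 and 40.3% in HHZ. The ratio of the catalase sum to the superoxide dismutase sum was lowest after 1 day in each genotype, at 1.23 in H471, 1.39 in P28 and 1.49 in HHZ, against 2.41, 2.59 and 2.03 in their controls. These ratios come from single pooled columns and were not tested.

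**Figure D4:**
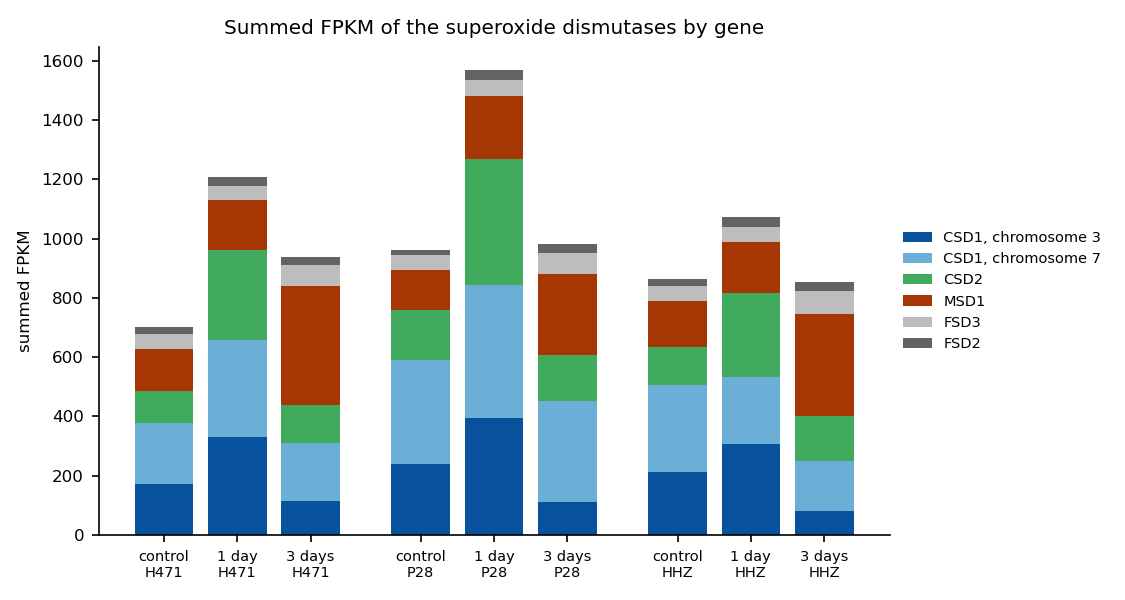
Summed FPKM of the 6 superoxide dismutase genes (y axis, from 0) for each genotype and condition (x axis), with the genes stacked. The sum peaks after 1 day in each genotype, and MSD1 takes its largest share after 3 days.

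No gene of the family was called between genotypes. Between H471 and HHZ the fitted differences common to the 3 conditions lay between -0.15 and 0.10, and none of the 9 genes was called, where 0.224% of all genes were. None passed an unadjusted p under 0.05 either, where 6.74% of all genes did. For catalase A the difference was 0.04, with a 95% interval of -0.75 to 0.83. Within single conditions H471 and HHZ were less than 1 apart on the log2 scale for all 9 genes, a distance that 2.46% of all genes reached when well watered, 3.41% after 1 day and 3.40% after 3 days. The largest was catalase A after 3 days, at 1633 FPKM in H471 and 1071 in HHZ, a log2 difference of 0.61. After 1 day its difference had the other sign, at -0.45. CSD1 of chromosome 7 likewise lay below HHZ in the H471 control (-0.52) and above it after 1 day (0.53).

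Catalase A was above HHZ in P28 in each condition, although the fitted difference did not pass the adjusted threshold. The P28 level was 2.22 times that of HHZ in the control, 2.98 times after 1 day and 1.49 times after 3 days. It was the single gene of the 9 past a log2 difference of 1 in the control, as were 7.25% of all genes, and after 1 day, as were 6.76%; after 3 days none of the 9 was, against 6.24%. The fitted difference was 1.10 ± 0.33, higher in 3 of 3 conditions, with an adjusted p of 0.118 (limma). CSD1 of chromosome 7 was also higher in P28 in each condition, at 1.20, 1.98 and 2.00 times the HHZ level, with a fitted difference of 0.75 ± 0.19 (adjusted p = 0.0740). CSD2 differed by 0.35 ± 0.12 (adjusted p = 0.140) and CSD1 of chromosome 3 by 0.33 ± 0.14 (adjusted p = 0.248). None of the 9 genes was called between P28 and HHZ, where 6.64% of all genes were, and 4 had an unadjusted p under 0.05, where 20.16% of all genes did. Without the control columns CSD1 of chromosome 7 was called (0.99, adjusted p = 0.0192, in a range of 0.0192 to 0.377 over the alternatives). The other catalases were closer, at -0.09 for catalase B and 0.12 for catalase C.

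H471 was set against the donor in the same fit, which shares these columns. Catalase A had a difference of -1.06 ± 0.33 from P28 (adjusted p = 0.129, limma), CSD1 of chromosome 7 of -0.67 ± 0.19 (adjusted p = 0.1003) and CSD2 of -0.47 ± 0.12 (adjusted p = 0.0629). None of the 9 was called, where 6.72% of all genes were, and 3 had an unadjusted p under 0.05, where 20.76% of all genes did. The H471 level of catalase A was 0.437 times that of P28 in the control, 0.246 times after 1 day and 1.03 times after 3 days. Leaving out the 3-day columns gave a difference of -1.61 that was called (adjusted p = 0.0465, in a range of 0.0465 to 0.525 over the alternatives). Segments that H471 carries from P28 were taken as the spans between the outermost differentially expressed genes that the paper lists for each. By locus number, 3 superoxide dismutases (CSD1 of chromosome 3, CSD1 of chromosome 7 and MSD1) lie within such spans, and no catalase does. A gene in a segment but beyond its outermost listed gene would be missed. For CSD1 of chromosome 7 the H471 level was 0.582 times that of P28 in the control, 0.728 times after 1 day and 0.583 times after 3 days. For CSD1 of chromosome 3 it was 0.723, 0.836 and 1.02 times that of P28 in the same order, and for MSD1 1.05, 0.789 and 1.46 times.

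**Figure D5:**
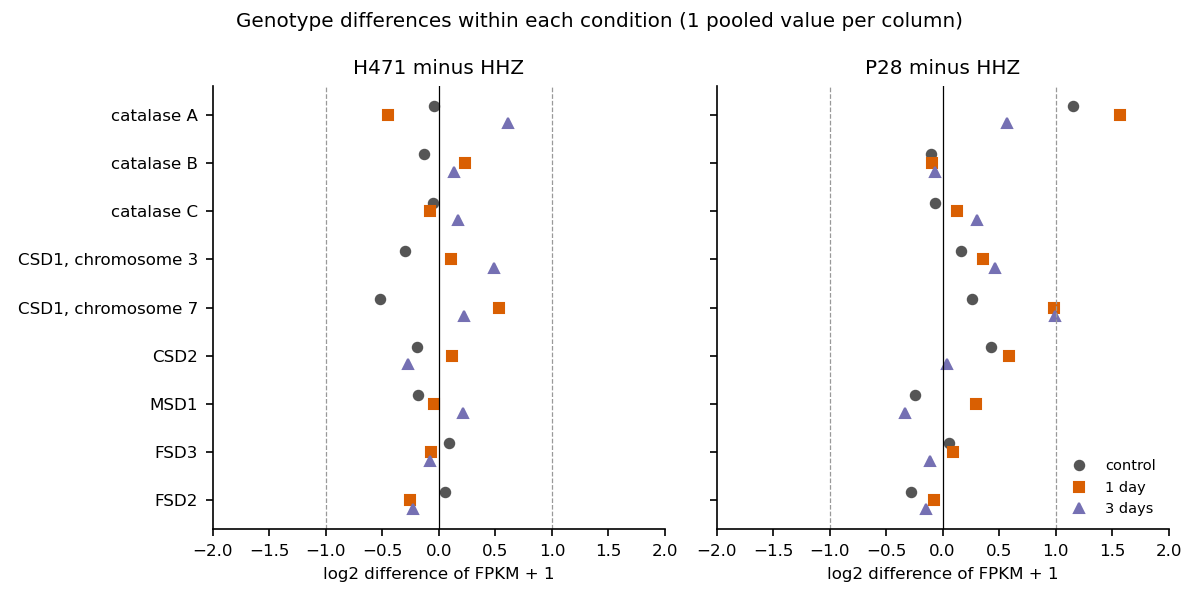
Log2 differences of FPKM + 1 (x axes) of the 9 genes within each condition, H471 minus HHZ on the left and P28 minus HHZ on the right; dashed lines mark a difference of 1. Each symbol compares 2 pooled columns. In P28 catalase A lies past 1 in the control and after 1 day, and CSD1 of chromosome 7 lies close to 1 after 1 and 3 days.

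Other systems that remove hydrogen peroxide were counted in the same way, against 27.4% of all genes called higher and 30.8% lower after 1 day, and 27.0% and 30.1% after 3 days. Ascorbate peroxidases reduce hydrogen peroxide with ascorbate in the cytosol, peroxisome, mitochondrion and chloroplast, and of 8 genes 2 were called higher and 3 lower after 1 day, and none higher and 5 lower after 3 days. The median of the list was -0.09 after 1 day and -0.54 after 3 days. APX2, a cytosolic form, was at 799 FPKM in H471 controls, 861 after 1 day and 69.5 after 3 days, with 1061, 1102 and 75.5 in P28 and 883, 907 and 65.3 in HHZ. It fell by 3.68 after 3 days, the largest fall of the list, while its 1-day difference of 0.07 was not called. After 1 day the extremes of the list were APX3 with a rise of 2.04 and APX7 with a fall of 1.31. APX3 was scarce, at 0.53 to 1.01 FPKM in the controls and 5.14 to 7.26 after 1 day. After 3 days APX3 was highest at 0.31, without a call.

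Of 10 genes that recycle ascorbate and glutathione, 9 were tested, and 3 were called higher and 2 lower after 1 day, and none higher and 6 lower after 3 days. The monodehydroascorbate reductase LOC_Os09g39380 rose by 1.40 after 1 day, and the glutathione reductase LOC_Os10g28000, which stayed under 5 FPKM, fell by 0.99. After 3 days the monodehydroascorbate reductase LOC_Os08g44340 fell by 1.37, and LOC_Os08g05570, at 0.07, had the highest value without a call. Between P28 and HHZ, the dehydroascorbate reductase DHAR1 (LOC_Os05g02530) was higher by 0.74 (adjusted p = 0.0260, limma) and LOC_Os10g28000 was lower, at -0.66 (adjusted p = 0.0202). Of 5 glutathione peroxidases, 2 were called higher and 1 lower after 1 day, and 1 higher and 4 lower after 3 days. LOC_Os06g08670 had both the largest 1-day rise, 0.86, and the largest 3-day fall, 1.35. LOC_Os11g18170 fell by 0.70 after 1 day, and LOC_Os03g24380 rose by 0.26 after 3 days.

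Glycolate oxidases make the hydrogen peroxide that leaf catalase breaks down. Of 4 genes, none was called higher and 1 lower after 1 day, and 1 higher and 3 lower after 3 days. GLO1, the most abundant, was at 1323 FPKM in H471 controls, 1154 after 1 day and 588 after 3 days, with 1398, 1455 and 633 in P28 and 1186, 1288 and 744 in HHZ. GLO4 had the largest fall after 3 days, 1.11, and GLO3, which stayed under 26 FPKM, rose by 2.18. After 1 day GLO3 had a difference of 0.55 without a call and GLO5 fell by 0.46.

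Copper-zinc superoxide dismutases need copper, delivered by the chaperone CCS, and share chloroplast copper with plastocyanin. All 4 genes of this list, CCS, plastocyanin, the copper regulator SPL9 and LOC_Os03g11960, were called higher after 1 day. Of all genes tested, 27.4% were called higher at that time. After 3 days 1 was higher and 2 were lower than in the control, against 27.0% and 30.1% of all genes. All 4 were called lower after 3 days than after 1 day, as were 24.4% of all genes. CCS (LOC_Os04g48410) rose by 0.61 after 1 day, the smallest rise of the 4, and plastocyanin rose by 1.41, the largest. After 3 days plastocyanin fell by 1.03 and LOC_Os03g11960 rose by 0.38. LOC_Os03g11960 is described by its best match as a copper-zinc superoxide dismutase (CSD3) and was the only gene outside the 9 with such a description. Its FPKM was 128 in H471 controls, 221 after 1 day and 191 after 3 days, with 149, 279 and 167 in P28 and 132, 238 and 174 in HHZ.

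The 1-day columns differed from the controls in genes of the circadian clock. All 10 clock genes were called after 1 day, 4 higher and 6 lower, against 58.3% of all genes. After 3 days 7 were called, 6 higher and 1 lower, against 57.2% of all genes. LHY, a morning gene, was at 2.08 FPKM in H471 controls, 353 after 1 day and 10.6 after 3 days, with 1.53, 426 and 17.3 in P28 and 1.49, 389 and 14.2 in HHZ. LUX, an evening gene, fell by 7.84 after 1 day and fell by 2.49 after 3 days. The hour of sampling is not given in the sources used here, and catalase transcripts follow the time of day in Arabidopsis. The part of the clock genes' difference in the catalase and superoxide dismutase values was not tested.

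Leaf markers moved as well. Of 7 genes, the 4 LHCB genes of the light-harvesting complex were called higher after 1 day, against 27.4% of all genes. After 3 days 1 LHCB gene was called higher and 4 genes lower, against 27.0% and 30.1% of all genes. The 4 were 1 LHCB gene and all 3 RBCS genes of the small rubisco subunit. All 7 leaf markers were called lower after 3 days than after 1 day, against 24.4% of all genes. The summed FPKM of the 7 was 9361 in H471 controls, 21055 after 1 day and 3076 after 3 days, with 10552, 27151 and 4654 in P28 and 8713, 24161 and 4045 in HHZ. Their part in the values of CSD2 or catalase C was not tested.

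The genes most alike in pattern were found by Pearson's r over the 9 columns among genes with a mean FPKM of at least 10. The 9 columns share genotypes and conditions, and r is given as a description. For catalase C these were LOC_Os12g08810 (match VTC5, an enzyme of ascorbate synthesis in Arabidopsis; r = 0.998) and the phosphoglycerate kinase LOC_Os02g07260 (0.997). For catalase B they were LOC_Os02g27030 (match RD19, a drought-responsive cysteine protease in Arabidopsis; 0.996) and LOC_Os10g35870 (match MAPR3; 0.996). For catalase A they were LOC_Os04g58060 (match PRMT6; 0.980) and the exoribonuclease-like LOC_Os12g21500 (0.962). Among the superoxide dismutases, CSD1 of chromosome 3 was nearest to LOC_Os01g54550 (match HSFA4C, a heat shock factor; 0.988), CSD2 to LOC_Os12g34460 (match ABP1; 0.985) and MSD1 to LOC_Os07g08950 (an FAD-linked oxidase; 0.986). FSD3 was nearest to LOC_Os08g17294 (0.995), FSD2 to LOC_Os10g35010 (match TIC110, of the chloroplast import machinery; 0.972) and CSD1 of chromosome 7 to LOC_Os03g16874 (0.920). Within the family, r was 0.96 between catalase C and CSD1 of chromosome 3, 0.91 between MSD1 and FSD3, and -0.97 between catalases B and C.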

How the data were processed

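The values are the authors' deposited FPKM, 1 for each gene in each of 9 columns. Per the authors, ribosomal RNA was removed, TopHat aligned paired-end reads to the MSU rice genome, and Cufflinks, with corrections for bias and multi-mapped reads, gave FPKM from the 2 libraries of each genotype and condition together. The paper also states that uniquely matching reads were the ones analysed further. Tool versions: not given in the sources used here. FPKM carries no read counts, so the depth behind a value is unknown. All columns matched a group by header.

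Genes that reached 1 FPKM in any column (20568) were tested on log2(FPKM + 1). limma 3.58.1 (R 4.3.3), with a trend on mean expression and 4 residual degrees of freedom, was checked on simulated data. A difference between 2 columns was sized only, at a log2 difference of at least 1. Named are the 9 genes, list genes called between P28 or H471 and HHZ, and the most alike genes. The extremes of each list after 1 day and 3 days are also named, except for the drought, leaf, and root and seed markers. GLO1, the LHCB genes and LHY values were added as context. Genes were placed in introgressed segments by locus number, within the span of the differentially expressed genes that the paper lists for each segment. The genes and lists were chosen with earlier results of these data known. Pseudocounts of 0.1 and 5, no filter, a minimum of 5, median-ratio scaling, no trend and leaving out each genotype or condition were tried. Sequences were not used here. Figures were drawn with matplotlib 3.10.9 in Python 3.11.15.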

Additional observations from a re-analysis of the deposited data

Results flagged for a closer look

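For 3 genes the drought difference did not have the same sign in all genotypes. Each value compares 2 pooled columns, and the differences between genotypes were not tested. CSD1 of chromosome 7 (LOC_Os07g46990) had a log2 difference between 1 day and the control of 0.68 in H471 and 0.35 in P28, against -0.37 in HHZ. For FSD3 (LOC_Os06g05110) the 1-day difference was -0.15 in H471, 0.0506 in P28 and 0.0151 in HHZ, all small beside its 3-day rise. CSD2 (LOC_Os08g44770) had a difference between 3 days and the control of 0.18 in H471, -0.13 in P28 and 0.25 in HHZ.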

How the results depend on the processing

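No paired analysis was possible because both libraries of each group are pooled in 1 column, and for the same reason single replicates could not be left out. Of 540 comparisons of a gene's fitted difference with an alternative, 509 kept the direction and the side of the threshold, 7 lost a call, 6 gained one and 18 turned in sign, none of them called before or after. The log2 differences that turned were as follows. After 1 day of drought, without H471, CSD1 of chromosome 7 was at -0.0086 and FSD3 at 0.033, and with median-ratio scaling FSD3 was at 0.0098. Between H471 and HHZ, without the 3-day columns, catalase A was at -0.24, catalase C at -0.067, CSD1 of chromosome 3 at -0.10 and FSD3 at 0.0096. Without the 1-day columns CSD1 of chromosome 7 was at -0.15, MSD1 at 0.0171 and FSD3 at 0.0058, and MSD1 was at 0.0169 with median-ratio scaling and at 0.087 without the control columns. Between P28 and HHZ, MSD1 was at 0.025 without the 3-day columns, and FSD3 at -0.011 without the control columns and -0.029 without the 1-day columns. Between H471 and P28, MSD1 was at -0.14 without the 3-day columns, FSD3 at 0.035 without the 1-day columns and FSD2 at -0.13 without the control columns. The cause was not tested. In 2 comparisons the count of calls over the family moved, with 0 genes called when all columns were used: 1 gene was called between P28 and HHZ without the control columns, and 1 between H471 and P28 without the 3-day columns. Without a filter on low values 4 and 5 of the 9 genes were called after 1 and 3 days, in place of 6 and 6. The shares of all genes called were then 27.8% and 26.3%, but over all 39049 genes in the table. With the filter they were 58.3% and 57.2% of the 20568 genes kept, so these shares have unlike denominators. By size, CSD1 of chromosome 7 passed a log2 difference of 1 between P28 and HHZ after 3 days with a pseudocount of 0.1 or with median-ratio scaling. The family sums moved little with that scaling, whose factors lay between -0.02 and 0.03 on the log2 scale. With 1 pooled value per group, differences between genotypes within a condition carry no error.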
